A study of Mus musculus with 5 samples.

Results

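C1q-high cells are the immune cells of hashtag populations 1, 4 and 7 that held many transcripts of complement component C1q and few of T cell, B cell and cell division genes. A cell was a member where unique molecular identifiers (UMIs, 1 per captured RNA molecule) of C1qa, C1qb and C1qc added up to at least 20, those of Cd3e, Cd3d and Cd3g to at most 1, Cd79a to at most 1, and Mki67 and Top2a to at most 2. This left 2225 of 21531 cells: 407 in population 1, 727 in population 4 and 1091 in population 7. They were set against the other Csf1r cells of the same populations, 967 cells (192, 317 and 458) that passed the same limits with at least 1 UMI of Csf1r, the receptor for colony-stimulating factor 1, and fewer than 20 of C1q.

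The study sorted live CD45+ cells from 3 mice, and from each mouse took tumour, a lymph node draining it (dLN) and a lymph node not draining it (non-dLN). Mouse 1 was given nivolumab_mIgG1_D265A, mouse 2 nivolumab_mIgG1 and mouse 3 the isotype control MOPC21. Nivolumab is an antibody against the inhibitory receptor PD-1 of T cells, here on a mouse IgG1 backbone, and D265A names an exchange in its Fc part. The design text numbers the 9 sorted samples by mouse and site and the hashtag antibodies are numbered too, but nothing in the sources used here says which tag went on which sample. The populations are therefore called by hashtag number, no population is given a tissue or an antibody, and each antibody had 1 mouse, so no test was run. All intervals are 95%, exact, and cover counting error only. Strain, age, tumour line and dosing are not given in the sources used here.

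C1q is the recognition molecule of the classical complement pathway, built from A, B and C chains. It binds the Fc part of antibodies on a target and also the surface of dying cells, which phagocytes then take up. Unlike most complement proteins, which the liver supplies, C1q is made largely by macrophages and related cells, and macrophages that settle in tissue commonly make more of it than the monocytes they come from.

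A hashtag is a short DNA barcode on an antibody that binds nearly every cell of a sample. The 3 barcodes below are what separated the 3 populations, and they are shown because every comparison between populations rests on them. Each is 15 bases long, printed 5′ to 3′, and differs from the other two in at least 11 of its bases.
hashtag 1: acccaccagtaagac
hashtag 4: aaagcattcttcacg
hashtag 7: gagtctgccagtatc
The top hashtag made up a median of 95.7, 97.9 and 97.9% of the hashtag counts of C1q-high cells in populations 1, 4 and 7.

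The 3 genes that define the cells lie beside each other on the minus strand of mouse chromosome 4 in GRCm38: C1qb (ENSMUSG00000036905) at 136880129 to 136886187, C1qc (ENSMUSG00000036896) at 136889804 to 136893065 and C1qa (ENSMUSG00000036887) at 136895917 to 136898803. The 250 bases before the RefSeq start of C1qb and of C1qc are shown because the 3 chains kept nearly fixed proportions in C1q-high cells of all 3 populations. They are from RefSeq (GRCm38.p6), read 5′ to 3′ on the gene's strand, at chr4:136886201-136886450 and chr4:136892915-136893164. The RefSeq start of C1qc lies inside the gene as GENCODE gives it above, so part of its window is within that gene. C1qa was not matched there. Capitals mark GAGGAA (or its reverse TTCCTC), the core of the site of PU.1, the lead transcription factor of myeloid cells, and TGCTGA, the core of the MAF site.
C1qb: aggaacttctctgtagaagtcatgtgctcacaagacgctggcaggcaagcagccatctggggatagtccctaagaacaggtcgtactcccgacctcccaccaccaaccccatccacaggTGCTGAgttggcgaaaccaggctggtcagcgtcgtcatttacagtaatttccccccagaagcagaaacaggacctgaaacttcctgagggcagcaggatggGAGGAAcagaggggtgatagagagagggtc
C1qc: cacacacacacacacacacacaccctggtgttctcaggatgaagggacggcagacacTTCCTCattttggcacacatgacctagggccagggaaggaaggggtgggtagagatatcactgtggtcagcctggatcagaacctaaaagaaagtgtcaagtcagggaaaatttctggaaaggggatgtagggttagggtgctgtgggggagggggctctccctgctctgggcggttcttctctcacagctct
GAGGAA was found once in each window, 30 bases before the start in C1qb and 193 bases before it in C1qc. TGCTGA was found once, 131 bases before the start in C1qb. Searched on both strands, GAGGAA is in 23.3% and TGCTGA in 16.1% of the 32851 promoter windows of that length. Neither window held TTCNNNGAA, the core of the site of STAT factors, which is in 7.02% of all windows. A match is a run of letters and was not tested as a binding site.

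C1q counts in members ran far past the threshold that chose them, with medians of 185, 258 and 311 UMIs in populations 1, 4 and 7 and highest values of 783, 836 and 1025. Other Csf1r cells had medians of 3, 2 and 1. C1qa, C1qb and C1qc made up 28.6, 42.8 and 28.5% of C1q UMIs in C1q-high cells of population 1, 29.8, 41.9 and 28.3% in population 4 and 30.6, 41.5 and 27.9% in population 7. T cells of the same populations, which should make none, held 1.29, 0.888 and 1.496 C1q UMIs per cell on average (29.4, 42.2 and 28.4% of the 3 chains in population 1). The median T cell held 0, and the highest T cells held 186, 97 and 119 C1q UMIs.

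Csf1r, which the rule did not use for members, was found in 96.8, 98.3 and 98.4% of C1q-high cells of populations 1, 4 and 7. Adgre1, the F4/80 antigen of mouse macrophages, was found in 87.2, 85.1 and 89.4% of C1q-high cells, against 50.5, 45.4 and 42.1% of other Csf1r cells and 2.99, 2.60 and 2.07% of T cells, the background. C1q-high cells held more UMIs per cell, and these shares were not taken at equal depth. Per 1000000 UMIs the first 2 classes lay closer, at 409, 290 and 319 in C1q-high and 339, 180 and 171 in other Csf1r cells. The 4 T cell markers of 6 that the table holds summed to 7.58 to 11.8 UMIs per 1000000 (CPM) in members, against 4188 to 5183 CPM in T cells, but the rule limited Cd3d, Cd3e and Cd3g, which are 3 of these. Cd5, the other one, had 1.14, 2.46 and 1.87 CPM in C1q-high cells and 286, 260.0 and 222 CPM in T cells. The 5 neutrophil markers summed to 25.3 to 62.9 CPM in members, nearly all of it from Csf3r (62.1, 48.5 and 25.01 CPM), while S100a8 had 0.758, 0.264 and 0.275 CPM and Retnlg was at 0. Plasmacytoid dendritic cell markers summed to 926 to 1199.8 CPM in C1q-high cells, 488 to 623 CPM in other Csf1r cells and 254 to 784 CPM in T cells, nearly all from Bst2, an interferon-induced surface protein that had 1035, 1198 and 925 CPM in members. The 6 markers of conventional dendritic cells summed to 18.8 to 59.8 CPM in C1q-high cells and 39.5 to 71.4 CPM in other Csf1r cells. Of these Flt3 had 0.379, 0.264 and 0.661 CPM and Zbtb46 0, 0.176 and 0.165 CPM in C1q-high cells, while Xcr1 and Clec9a were present and are described further on. Csf1r and Adgre1 are the basis for calling the cells macrophages. Each barcode occurs once in the table. Scrublet called none of the members a doublet, but it called only 0.855% of all cells at an expected 8%. That result therefore says little about doublets among members.

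C1q-high cells held more UMIs than the cells beside them: medians were 12169, 15778 and 16738 UMIs per C1q-high cell in populations 1, 4 and 7, against 4017.5, 5118 and 6150 in other Csf1r cells. A deep cell reaches 20 C1q UMIs more readily than a shallow one, so depth is tied to the rule. Malat1, a nuclear transcript that is high where cytoplasmic RNA has been lost, had 7517, 6648 and 4914 CPM in C1q-high cells and 16231, 12919 and 9078 CPM in other Csf1r cells. The comparison with other Csf1r cells was repeated with cells of 5000 to 10000 UMIs, an alternative chosen after the data were seen, which kept 100, 124 and 175 C1q-high and 60, 108 and 174 other Csf1r cells. The 967 other Csf1r cells are also mixed: in population 1 their neutrophil markers summed to 569 CPM, against 62.9 CPM in C1q-high cells.

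The 61 cells with 20 to 24 C1q UMIs, just inside, had 3422 CPM of Apoe and 1755 CPM of the monocyte gene Ly6c2. The 49 other Csf1r cells with 15 to 19 UMIs, just outside, had 2520 and 1726 CPM. The pooled values hide differences between populations: Ly6c2 had 715, 2804 and 1144 CPM just inside and 13.8, 3504 and 359.8 CPM just outside in populations 1, 4 and 7, and Apoe had 7074, 2630.4 and 2890.2 CPM just inside and 4969, 2108 and 1210.3 CPM just outside. Ly6c2 was thus higher inside in populations 1 and 7 and lower in population 4, over 11 to 26 cells inside and 14 to 21 outside.

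C1q-high cells made up 19.8% of all cells in population 1 (18.1 to 21.6%), 31.6% in population 4 (29.7 to 33.5%) and 44.2% in population 7 (42.3 to 46.2%). The 3 intervals did not overlap, but they cover counting error within 1 sample each and carry nothing of the spread between mice. Among cells that were either C1q-high or other Csf1r cells, the shares were 67.9% (64.0 to 71.7), 69.6% (66.7 to 72.4) and 70.4% (68.1 to 72.7), with intervals that overlap. Depth rises in the same order, so every cell was also thinned to 3000 UMIs, which 1559, 1869 and 2154 of 2056, 2304 and 2467 cells reached, and called by 20 C1q UMIs among these. The shares were then 23.2, 34.3 and 46.4%, in the same order. Cells with at least 20 C1q UMIs that the other limits removed numbered 67, 56 and 62 for Cd3 genes, 21, 20 and 24 for Cd79a and 47, 82 and 240 for the division genes, so population 7 lost the most dividing cells.

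**Figure D1:**
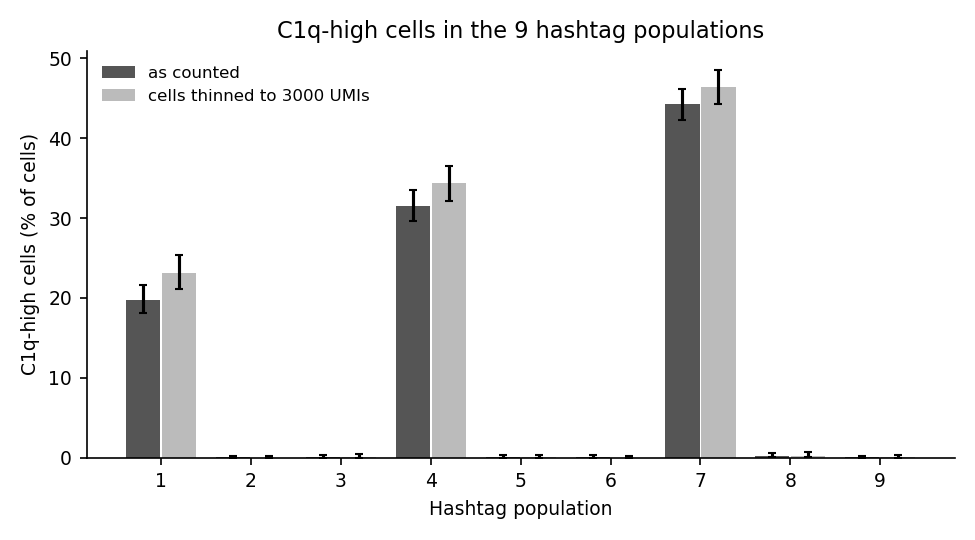
C1q-high cells as a percentage of the cells of each hashtag population, as counted (dark bars) and with every cell thinned to 3000 UMIs (light bars), with exact 95% binomial intervals. Populations 1, 4 and 7 stood at 19.8, 31.6 and 44.2% as counted, and the other 6 populations at under 0.3%.

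Set against other Csf1r cells, C1q-high cells had more of most MHC class II genes and of some lysosome, lipid transport and chemokine genes, and far less of most monocyte genes. Levels are in CPM: all UMIs of a gene in a class, divided by all UMIs of that class and multiplied by 1000000. To be called, a gene needed a 2-fold difference in the same direction in each of the 3 populations, every time with an interval that leaves out a ratio of 1. By that rule 163 of 8152 measured genes were higher (2%) and 775 lower (9.51%), and the median log2 ratio over all of them was -0.14. Scaled so that this median is 0, 240 were higher and 535 lower. Without population 1, 323 were higher, and without population 7, 1217 were lower, since a gene then had to pass in fewer populations. The C1q genes, which chose the cells, are left out. The classes were set by counts of the same cells, so all ratios are descriptions.

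Restricted to cells of 5000 to 10000 UMIs, 36 genes were higher and 54 lower of 3860 measured. Of the 163 higher genes only 63 could be measured again, so the others were not checked. All 63 had the same sign, 53 were still at least 2-fold higher by the median and 34 were still called. Their median log2 ratio was 1.35, against 1.52 in all cells. Of the 775 lower genes 567 were measured again. Of these 566 had the same sign, but 112 were still at least 2-fold lower by the median and 47 were still called. The median log2 ratio of the 567 was -0.69, against -1.50 in all cells. Of the called list genes Grn, Trem2, Fcgr4, H2-DMb1 and Vegfa were among those no longer called, at 1.27, 2.33, 1.06, 1.32 and -0.95 (median log2), and others are named with their lists. Of the 15 genes with the highest ratios only Cd81, Ccl7 and Cxcl14 were still called, and Ccl8 stood at 3.18. Of the lowest genes Chil3, Pglyrp1, Klrd1, Gzma, Met, Sgms2, Nrg1 and Plcb1 were no longer called. Their median log2 ratios still stood at -4.82, -4.41, -2.02, -4.34, -2.78, -2.61, -2.98 and -2.95, in fewer cells and UMIs.

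MHC class II molecules, which show peptides to CD4 T cells, made up the list with the highest median log2 ratio, 1.35 (all genes, -0.14). Of its 8 measured genes 5 were higher and 0 lower. Over all 8152 measured genes 2% were higher and 9.51% lower, and the list counts below are to be read beside these shares. Cd74, the invariant chain that guards the peptide groove, had 37025, 36711 and 28358 CPM in C1q-high cells of populations 1, 4 and 7, against 12783, 10517 and 10233 CPM in other Csf1r cells. It was 2.90-fold (2.84 to 2.95), 3.49-fold (3.44 to 3.54) and 2.77-fold (2.74 to 2.80) higher. The levels of the classes did not overlap, and T cells had 506, 581 and 669.7 CPM. The alpha and beta chains H2-Aa, H2-Ab1 and H2-Eb1 were 2.68, 3.06 and 2.61-fold, 2.86, 3.11 and 2.79-fold and 2.76, 3.67 and 3.27-fold higher in populations 1, 4 and 7, and H2-DMb1, a subunit of the peptide exchange factor, 2.43, 2.68 and 2.16-fold. Ciita, the transactivator that switches these genes on, was not called, with 54.7, 43.4 and 33.8 CPM in C1q-high cells and 75.04, 50.7 and 53.5 CPM in other Csf1r cells. At matched depth 4 of the 7 genes measured again were called, and the list's median was 1.58.

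Of 14 lysosomal genes 2 were higher and 0 lower, with a median log2 ratio of 0.77. Grn, the precursor of the lysosomal granulins, had 1595, 1874 and 1944 CPM in C1q-high cells, against 598, 776 and 801 CPM in other Csf1r cells, which is 2.67-fold (2.45 to 2.91), 2.41-fold (2.29 to 2.54) and 2.43-fold (2.33 to 2.53) higher. The 12 that were not called, the cathepsins among them, had median log2 ratios from 0.47 (Lamp1) to 1.25 (Lgmn, legumain), all above 0. Ctss, the protease that trims the invariant chain, had 5037, 5267 and 4596 CPM in C1q-high cells and 2233, 3003 and 3049.6 CPM in other Csf1r cells.

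Lipid handling genes split, with 3 of 13 measured higher, 1 lower and a median of -0.10. Apoe, which carries lipid out of the cell, had 6641, 5001 and 4936 CPM in C1q-high cells, against 2269, 1400.0 and 1775 CPM in other Csf1r cells, and was 2.93-fold (2.80 to 3.06), 3.57-fold (3.44 to 3.71) and 2.78-fold (2.71 to 2.86) higher. Pltp, the phospholipid transfer protein, was 4.36, 3.42 and 3.45-fold higher, and Trem2, a receptor for lipids of damaged cells, 3.48, 2.502 and 3.68-fold. Abca1, the pump that loads cholesterol onto such particles, went the other way: it had 212, 184 and 138 CPM in C1q-high cells, against 736, 675 and 281 CPM in other Csf1r cells. Its median log2 ratio of -1.80 was -0.56 at matched depth, where it was no longer called. Gpnmb and Fabp4, genes of lipid-laden macrophages, were near absent in members, at 0.379, 1.23 and 1.16 CPM and 0.379, 0.528 and 0.882 CPM, and too low to measure.

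**Figure D2:**
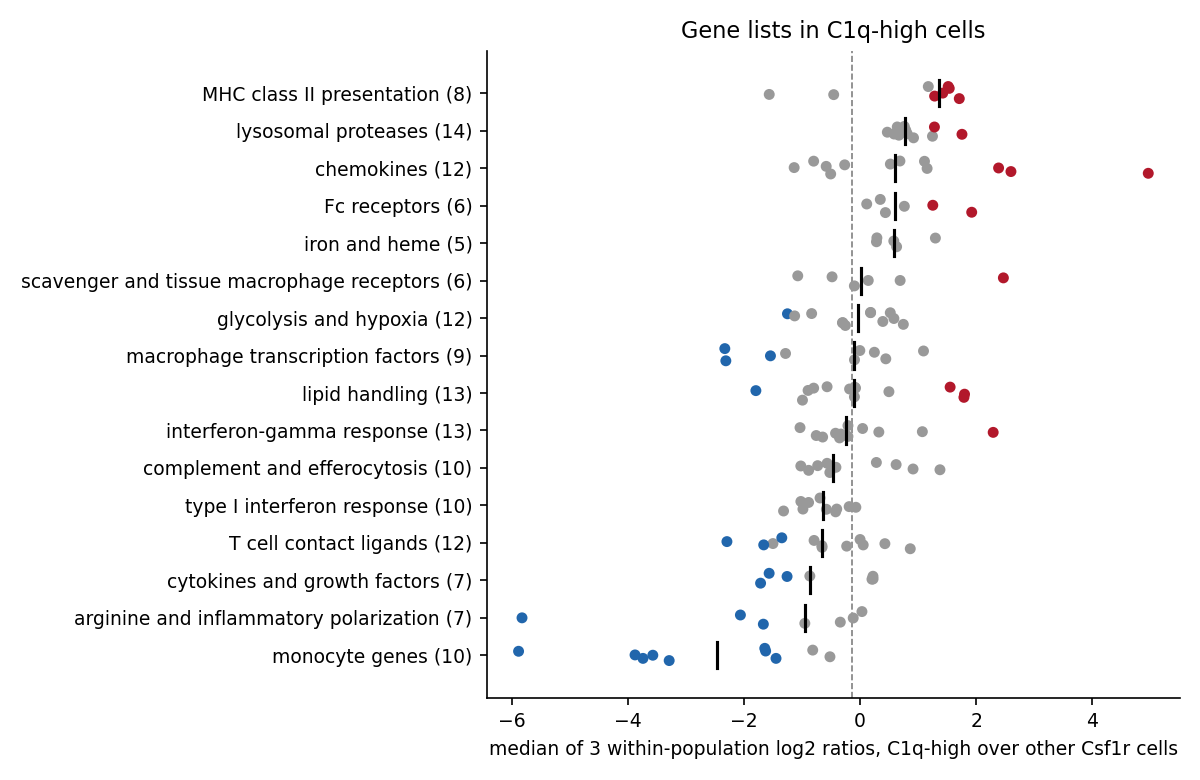
Median of the 3 within-population log2 ratios of C1q-high over other Csf1r cells for each measured gene (points) of 16 gene lists, with the number measured in brackets and the list's median as a black bar. Red points were called higher and blue points lower, the dashed line is the median of all measured genes (-0.14), and MHC class II genes stand at the top and monocyte genes at the bottom.

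Among chemokines, the secreted proteins that call cells into tissue, 3 of 12 measured genes were higher and 0 lower, with a median of 0.60. Ccl8 had 137, 109 and 88.7 CPM in C1q-high cells, against 4.41, 5.12 and 0.960 CPM in other Csf1r cells, where only 4, 10 and 3 UMIs were counted. Its median ratio was the largest among called genes, with 31.1-fold (12.1 to 115), 21.4-fold (11.6 to 44.7) and 92.4-fold (31.5 to 448) in populations 1, 4 and 7. Only 12.04, 17.1 and 15.5% of C1q-high cells held a Ccl8 UMI, so a minority of cells carried the level. Ccl7 was 5.44-fold (4.71 to 6.31), 6.05-fold (5.54 to 6.62) and 8.76-fold (7.84 to 9.83) higher and Ccl12 5.22, 3.45 and 7.57-fold higher. Cxcl9, which draws T cells through CXCR3, had 1328, 1447 and 1246 CPM in C1q-high cells and 505, 689 and 656 CPM in other Csf1r cells, and missed the call in population 7 at 1.90-fold. Its median log2 ratio of 1.07 was 0.45 at matched depth.

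Fc receptors, through which macrophages take hold of antibody, had 2 of 6 higher and 0 lower (median 0.60). Fcgrt, the heavy chain of the neonatal receptor that recycles IgG, had 125, 133 and 91.0 CPM in C1q-high cells, against 33.1, 22.04 and 35.5 CPM in other Csf1r cells. Fcgr4, an activating receptor, was 2.78-fold (2.49 to 3.13), 2.38-fold (2.20 to 2.57) and 2.03-fold (1.91 to 2.17) higher and lay at the limit in population 7. The activating Fcgr1 and Fcgr3 and the inhibitory Fcgr2b had median log2 ratios of 0.11, 0.44 and 0.35 and were not called.

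Of the receptors of tissue macrophages 1 of 6 measured was higher: Cd63, a tetraspanin of late endosomes, had 207, 339 and 326 CPM in C1q-high cells, against 37.5, 63.5 and 48.0 CPM in other Csf1r cells, and was 5.53-fold (3.93 to 8.02), 5.33-fold (4.46 to 6.43) and 6.78-fold (5.77 to 8.03) higher. Adgre1 was not called, at 1.21, 1.61 and 1.86-fold. Siglec1, a sialic acid receptor of resident macrophages, was found in 43.0, 35.4 and 37.1% of C1q-high cells of populations 1, 4 and 7. Some receptors of resident macrophages elsewhere were scarcely counted: Lyve1 was at 0 in C1q-high cells of all 3 populations, and Cd163, Marco and Vsig4 had at most 0.379 CPM. Timd4, a receptor for dying cells on resident macrophages, had 0, 0.264 and 0 CPM. None of the 10 measured genes of complement regulation and uptake of dead cells was called, and 0 of 5 iron genes. Mertk, a receptor for dying cells, had 79.9, 48.6 and 37.7 CPM in C1q-high cells and 162, 108 and 63.7 CPM in other Csf1r cells. C3ar1, the receptor for complement fragment C3a, was 2.92, 1.73 and 2.59-fold and missed the limit in population 4.

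Monocyte genes were the group furthest down, with 8 of 10 measured lower, 0 higher and a median log2 ratio of -2.46. Hp, haptoglobin, had 4.36, 3.08 and 1.76 CPM in C1q-high cells, against 142, 181 and 192 CPM in other Csf1r cells, and was lower 32.7-fold (20.9 to 53.4), 58.9-fold (41.6 to 86.0) and 109-fold (76.3 to 161). Plac8 had 109, 131 and 84.3 CPM in C1q-high cells, against 1133, 1751 and 2371 CPM in other Csf1r cells, and was 10.4, 13.4 and 28.1-fold lower. Ly6c2, the surface marker of inflammatory monocytes, had 319, 232 and 137 CPM in C1q-high cells, against 1140.0, 2757 and 2777 CPM in other Csf1r cells. It was 3.57-fold (3.30 to 3.86), 11.9-fold (11.3 to 12.4) and 20.3-fold (19.4 to 21.2) lower, so the gap was smallest in population 1. Plac8 and Ly6c2 are also made by T cells, which had 1496, 1206 and 595 CPM of Plac8 and 4376, 3007 and 1087 CPM of Ly6c2. F13a1 (a clotting factor subunit), Ccr2 (the receptor by which monocytes leave marrow), Fn1 (fibronectin) and S100a4 were lower too, with median log2 ratios of -3.29, -1.63, -1.64 and -1.45. Lyz2, lysozyme, was not called (-0.52). At matched depth 6 of 9 measured monocyte genes were lower with a median of -1.82, among them Hp (-5.09), Plac8 (-3.01), Ly6c2 (-2.37), F13a1 (-2.62), Ccr2 (-1.11) and S100a4 (-1.82). Scaled by the median ratio, Ccr2 and S100a4 were no longer called.

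Some inflammatory mediators were lower. Of 7 measured cytokines and growth factors 3 were lower and 0 higher (median -0.87): Il1b, the alarm cytokine of fresh monocytes, had 872, 705 and 725 CPM in C1q-high cells, against 2075, 2314 and 2936 CPM in other Csf1r cells. Its natural blocker Il1rn was 2.44, 3.71 and 2.96-fold lower and Vegfa, which promotes vessel growth, 2.10, 3.07 and 2.39-fold. Of 7 polarization markers 3 were lower and 0 higher (median -0.95). Chil3, a chitinase-like protein of monocytes, had 1.14, 5.10 and 7.33 CPM in C1q-high cells, against 72.8, 289 and 303 CPM in other Csf1r cells, which is 64.1-fold (27.9 to 181), 56.6-fold (43.1 to 75.5) and 41.3-fold (34.4 to 49.9) lower. Nos2, which makes nitric oxide, was 4.17, 5.05 and 3.11-fold and Ptgs2, which makes prostaglandins, 3.17, 2.83 and 3.37-fold lower. At matched depth the median log2 ratios of Il1b, Il1rn, Nos2 and Ptgs2 were -1.33, -1.49, -0.85 and -1.30, and of the 4 only Il1rn was still called. Vegfa was not called there either. Arg1, arginase, had 299, 311 and 756 CPM in C1q-high cells and 292, 895 and 528 CPM in other Csf1r cells, with no common direction.

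Of 9 measured transcription factors 3 were lower and 0 higher (median -0.10). Bhlhe40 was 5.44, 5.03 and 4.12-fold lower, Nr4a1, which is induced within minutes of stimulation and marks patrolling monocytes, 5.36, 4.14 and 4.97-fold, and Mitf, a regulator of lysosome genes, 4.15, 2.92 and 2.19-fold. Bhlhe40 (-1.59) and Nr4a1 (-2.50) were still called at matched depth, while Mitf (-0.28) was not. Spi1, which encodes PU.1, had 521, 599 and 541 CPM in C1q-high cells and 434, 505 and 583 CPM in other Csf1r cells. It was not called.

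Ligands for receptors on T cells had 3 of 12 lower and 0 higher (median -0.66). Cd80, which engages CD28 and CTLA-4 on T cells, had 12.3, 11.2 and 14.1 CPM in C1q-high cells, against 65.1, 50.7 and 69.2 CPM in other Csf1r cells, and was 5.29-fold (3.65 to 7.64), 4.54-fold (3.46 to 5.95) and 4.90-fold (4.07 to 5.90) lower. Cd86, its partner, was 3.05, 2.22 and 2.55-fold and Pvr, the ligand of TIGIT, 3.16, 3.51 and 2.40-fold lower. At matched depth Cd80 stood at -2.07, Pvr at -1.42 and Cd86 at -0.53, none of them called. The PD-1 ligand Cd274 had 359.8, 389 and 198.8 CPM in C1q-high cells and 587, 714 and 344 CPM in other Csf1r cells and was not called.

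In the interferon response lists 1 gene was called. Of 13 measured genes of the interferon gamma list 1 was higher and 0 lower (median -0.24): Gbp2b, a guanylate-binding protein, had 275, 201 and 103 CPM in C1q-high cells, against 83.9, 41.0 and 16.6 CPM in other Csf1r cells, and was 3.28-fold (2.61 to 4.19), 4.89-fold (3.91 to 6.19) and 6.22-fold (4.72 to 8.35) higher. Of 10 type I interferon genes none was called (median -0.64), with Isg15 at 709.8, 759.6 and 534 CPM in C1q-high cells and 678, 1226 and 1044 CPM in other Csf1r cells. Glycolysis and hypoxia genes had 1 of 12 lower, Hif1a, the oxygen-sensing factor, at 2.14, 2.38 and 2.79-fold (median log2 -1.25, and -0.72 at matched depth, not called). Over all 16 lists 17 of 154 measured genes were higher and 22 lower, against 2% higher and 9.51% lower of all 8152 measured genes. A count of 1 in a list is not read as a result about that list. The lists were chosen with earlier results of these data known.

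Of the 15 genes with the highest median ratio, Ccl8 and Ccl7 are in the chemokine list. Cd81, a tetraspanin, had 565, 624 and 801 CPM in C1q-high cells, against 77.3, 54.3 and 55.1 CPM in other Csf1r cells. It was 7.32-fold (5.77 to 9.41), 11.5-fold (9.48 to 14.04) and 14.6-fold (12.5 to 17.01) higher, found in 85.3, 84.7 and 89.3% of members, and at 3.42 (log2) at matched depth. Olfml3, a secreted olfactomedin-like protein, was 7.70, 5.44 and 10.3-fold higher and Cxcl14, a chemokine, 4.36, 8.04 and 5.85-fold. Fcrls, an Fc receptor-like protein, was 3.95-fold higher in population 1, at least 6.58-fold in population 4, where other Csf1r cells had 0 UMIs, and 11.7-fold in population 7. Fcrl5 was at least 4.29-fold higher in population 1 and 9.10 and 8.43-fold in populations 4 and 7, from 0, 1 and 3 UMIs in other Csf1r cells. Asb2, a ubiquitin ligase subunit, Hebp1, a heme-binding protein, and Smagp, an adhesion glycoprotein, had median ratios of 16.2, 8.15 and 8.001. Tmem171, B9d1, Gins2 and Gpr31b completed the 15, at 5.68, 9.27, 7.07 and 5.62-fold. The last 3 rested on 1 UMI in other Csf1r cells of population 1, and at matched depth Gins2 stood at 0.32 and Gpr31b at 0.74 on the log2 scale.

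Xcr1, also one of the 15, is the receptor for chemokine XCL1 and is known as a marker of the dendritic cells that cross-present antigen. It had 23.7, 11.2 and 6.17 CPM in C1q-high cells (125, 127 and 112 UMIs), against 2.21, 0.512 and 0.640 CPM in other Csf1r cells (2, 1 and 2 UMIs), and was 10.7-fold (2.91 to 89.5), 21.8-fold (3.84 to 868) and 9.64-fold (2.61 to 80.6) higher. A UMI was found in 11.8, 7.57 and 5.50% of C1q-high cells of populations 1, 4 and 7. Clec9a, a receptor for dead cells known from the same dendritic cells, had 34.3, 38.5 and 10.9 CPM in C1q-high cells and 11.04, 15.4 and 9.60 CPM in other Csf1r cells. Flt3 and Zbtb46, which such dendritic cells also carry, stood at or under 0.661 CPM in members, and the median log2 ratio of Xcr1 at matched depth was 0.96. Between populations, Xcr1 was called higher in population 1 and Clec9a lower in population 7.

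**Figure D3:**
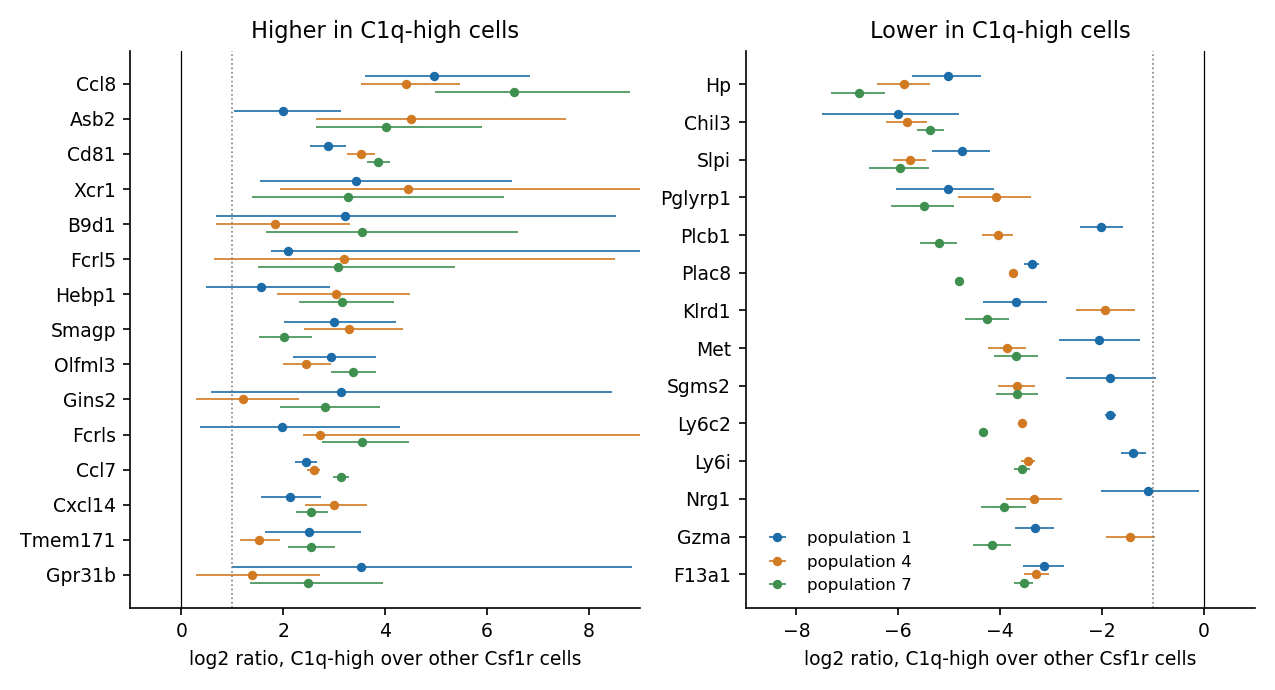
Log2 ratio of C1q-high over other Csf1r cells in populations 1, 4 and 7 for 15 genes with the highest and 14 with the lowest median ratios among called genes, with exact 95% intervals for counting error. Dotted lines mark 2-fold, intervals that pass 9 run off the axis, and Ccl8 leads the higher and Hp the lower genes.

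Of the lowest genes, Hp, Chil3, Plac8, Ly6c2 and F13a1 belong to the lists above. Slpi, an inhibitor of neutrophil proteases, had 6.25, 7.56 and 1.54 CPM in C1q-high cells, against 168, 414 and 96.4 CPM in other Csf1r cells, and -4.64 (log2) at matched depth, where it was still called. Ly6i, a relative of Ly6c2, was 2.62, 11.003 and 11.9-fold lower and -3.34 at matched depth. Pglyrp1, Klrd1 and Gzma are genes of neutrophils or cytotoxic lymphocytes, and T cells held 423, 417 and 489.8 CPM of Pglyrp1, 1180.4, 1105 and 864 CPM of Klrd1 and 247, 1814 and 67.6 CPM of Gzma. Natural killer markers summed to 2.04 to 10.6 CPM in C1q-high cells and 23.4 to 56.3 CPM in other Csf1r cells, and Gzma turned to 1.58 (log2) when other Csf1r cells had to hold at least 3 Csf1r UMIs. Met, the receptor for hepatocyte growth factor, and Sgms2, a sphingomyelin synthase, were 4.16, 14.5 and 12.8-fold and 3.57, 12.8 and 12.7-fold lower. Nrg1, a growth factor, was 2.15, 10.04 and 15.1-fold and Plcb1, a phospholipase, 4.05, 16.5 and 36.8-fold lower. In all 4 of these genes population 1 showed the smallest gap.

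Among C1q-high cells themselves, those with little C1q held more Ly6c2 and Plac8 than those with much. Cells were thinned to 3000 UMIs, which 395, 712 and 1080 cells reached, and grouped by their C1q UMIs among these. Ly6c2 averaged 5.03, 3.65 and 3.19 UMIs in members of populations 1, 4 and 7 with under 20 C1q UMIs of 3000, 1.65, 1.35 and 1.14 at 20 to 39, 0.444, 0.5 and 0.236 at 40 to 59, 0.209, 0.125 and 0.0457 at 60 to 79 and 0, 0.167 and 0.0933 at 80 or more. Plac8 was at 0 in the top group of each population, against 1.97, 2.04 and 1.83 UMIs in the lowest group. The top group held 15, 18 and 75 cells, so its values in populations 1 and 4 rest on few cells. Ccr2 averaged 0.735, 0.75 and 0.919 UMIs in the lowest group, 0.165, 0.0489 and 0.283 UMIs at 60 to 79 and 0.333, 0.0556 and 0.147 UMIs in the top group, where population 1 had 5 UMIs in all. Lyz2, of the same list, did not run this way: its correlation with C1q over thinned cells was 0.11, 0.15 and 0.13 (Pearson r).

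Ms4a7, a membrane protein of mature macrophages, ran the other way, with 2.21, 2.09 and 1.52 UMIs in the lowest and 8.13, 6.5 and 6.84 in the top group. Cxcl9 averaged 1.91, 1.84 and 2.33 UMIs in the lowest and 5.07, 5.33 and 4.53 in the top group, while Cd74 averaged 62.0, 49.96 and 54.1 UMIs in the lowest and 139, 139 and 106 in the top group. Trem2 had 0.5, 0.426 and 0.860 and 0.978, 0.995 and 1.78 UMIs in the lowest group and at 60 to 79. Malat1 stood at 46.2, 44.6 and 29.0 UMIs in the lowest group and 19.5, 17.7 and 13.6 at 60 to 79, so the nuclear share moved along with C1q, and its part in these gradients was not tested.

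**Figure D4:**
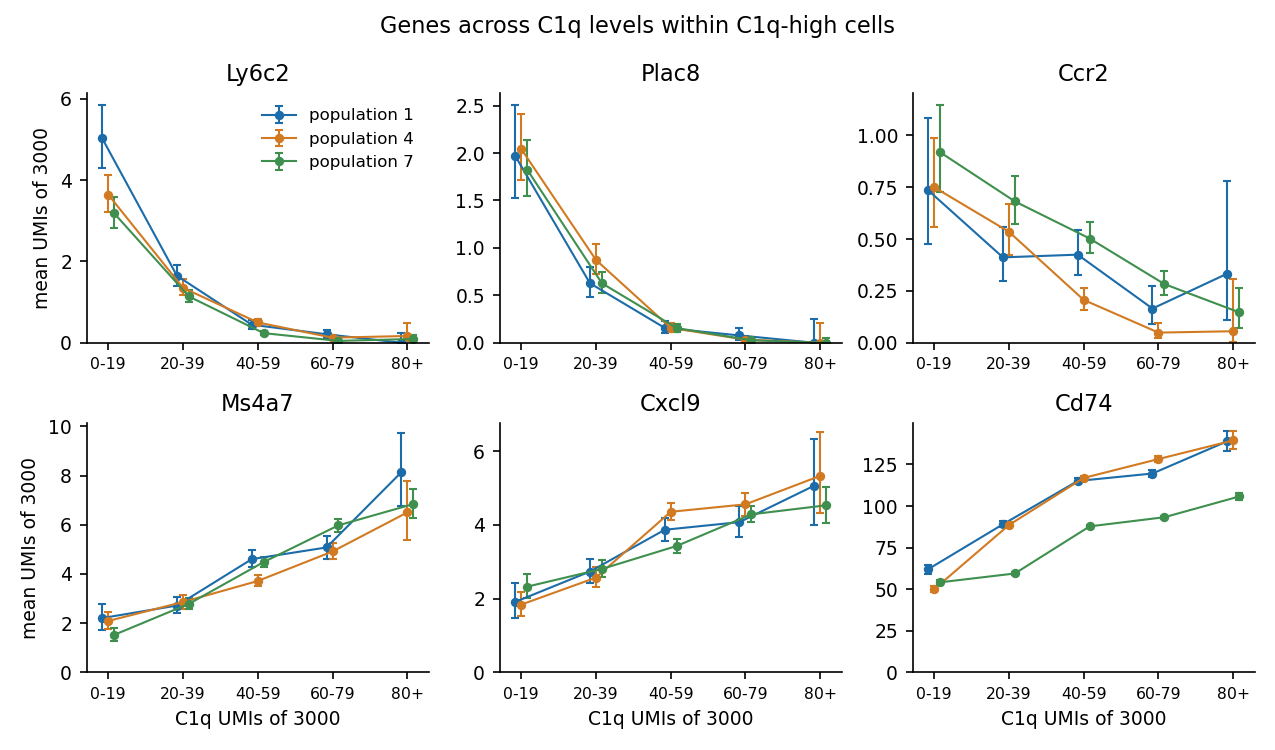
Mean UMIs of 6 genes in C1q-high cells thinned to 3000 UMIs (vertical axes, from 0) by the cells' C1q UMIs among these 3000 (horizontal axis), for populations 1, 4 and 7, with exact 95% Poisson intervals. Ly6c2 and Plac8 are low where C1q is high, Ccr2 is lower there than in the lowest group, and Ms4a7, Cxcl9 and Cd74 are higher there than in the lowest group.

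Across the thinned cells of each population, of 3687 genes averaging at least 0.1 UMI, Fcer1g, the signalling chain of Fc receptors, had the highest median correlation with C1q (Pearson r 0.50, 0.50 and 0.48). Tmsb4x, Itm2b, Cd74, Cst3 and Ms4a7 followed, with medians of 0.45, 0.44, 0.43, 0.42 and 0.40. Plac8 (-0.38) and Ly6c2 (-0.35) had the lowest, followed by Picalm (-0.35) and Trps1 (-0.35). For all genes, 90% of values lay between -0.20 and 0.17 in population 1. These are descriptions over cells that share a library and a fixed total, of which C1q is a part.

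With every cell at 3000 UMIs, variance over mean was at least 3 in each population in 61 of the 3687 genes, with medians of 1.11, 1.11 and 1.09. Spread was largest in Cmss1 (38.4, 51.8 and 62.6), and AY036118 had 31.1, 29.9 and 31.2. Neither gene is particular to these cells. Cmss1 was found in 100% of thinned cells of all 3 classes, and T cells had 11492, 11185 and 10261 CPM of it. T cells had 1490, 1452 and 1597 CPM of AY036118. The part of RNA quality in their spread was not tested. Cd74 (19.01, 23.6 and 21.2), Fth1, the ferritin heavy chain (26.3, 29.8 and 18.4), Apoe (19.8, 21.8 and 16.9) and Ly6c2 (19.8, 20.6 and 15.7) were among the 15 most variable. Lyz2 and 6 chemokines were too: Ccl4 (13.03, 12.1 and 21.9), Ccl5 (28.1, 19.4 and 12.1), Ccl7, Cxcl2, Cxcl9 and Cxcl10. The nuclear RNA Malat1 and Lars2 made up the rest. Cxcl9 was found in 59.5, 61.7 and 61.1% of thinned C1q-high cells, against 26.6, 36.4 and 33.2% of other Csf1r cells and 4.43, 5.51 and 4.83% of T cells. Ccl5 was found in 48.6, 41.3 and 24.4% of C1q-high cells but in 84.7, 80.6 and 58.9% of T cells, which are known to make it, and the part of free RNA in its counts in members was not tested.

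Some gene pairs were found together in the same C1q-high cells. Among thinned cells with a Cxcl10 UMI, 72.7% (64.7 to 79.8), 74.1% (68.8 to 78.8) and 68.2% (63.0 to 73.2) also held Cxcl9 in populations 1, 4 and 7, against 52.0% (45.6 to 58.3), 51.8% (46.7 to 56.8) and 57.9% (54.2 to 61.5) of cells without Cxcl10. Arg1 and Nos2, which compete for arginine and are often taken as opposites, were not exclusive. Nos2 was found in 19.1% (12.4 to 27.5), 20.7% (15.4 to 26.8) and 6.83% (4.83 to 9.33) of cells with Arg1. In cells without it the shares were 9.29% (6.16 to 13.3), 8.73% (6.41 to 11.5) and 3.07% (1.80 to 4.88). These intervals overlap in populations 1 and 7, and the cells with both numbered 22, 43 and 36. Of the 20, 55 and 143 cells with Mrc1, the mannose receptor, 35% (15.4 to 59.2), 36.4% (23.8 to 50.4) and 53.1% (44.6 to 61.5) held Cxcl9, against 60.8% (55.7 to 65.8), 63.8% (59.97 to 67.5) and 62.3% (59.1 to 65.4) of cells without it, and the intervals overlap in populations 1 and 7. Trem2 and Cxcl9 showed no common direction, at 63.5, 58.7 and 60.1% of cells with Trem2 and 55.6, 65.1 and 63.8% without.

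Between the 3 populations, few genes of C1q-high cells were called apart, and population 7 had the most such calls. A gene counted as apart where it was at least 2-fold from both other populations with intervals leaving out 1. Of 10686 genes with at least 50 UMIs over the members, population 7 had 89 higher (0.833%) and 80 lower (0.749%), population 1 had 64 higher (0.599%) and 45 lower (0.421%), and population 4 had 27 higher (0.253%) and 37 lower (0.346%). Each population is 1 sample, so these are differences between samples and no spread between mice is known. C1q-high cells of populations 1, 4 and 7 held 5280334, 11370965 and 18149164 UMIs in all. The limit of 50 UMIs is on their sum, so a gene can be measured through the population where it is high. Total UMIs were not equalised, so the counts of called genes do not rank the populations.

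Of 166 list genes measured between populations, 9 stood higher in population 7: Arg1, Fn1, S100a4, Mrc1, Folr2, Bnip3, Bhlhe41, Retnla and Il12b. Over all genes it was 89 of 10686 (0.833%), and the lists were chosen with earlier results of these data known. Retnla and Il12b rested largely on single cells, described further on. Arg1 had 756 CPM (744 to 769) in C1q-high cells of population 7, 299 CPM (284 to 314) in population 1 and 311 CPM (301 to 322) in population 4, and was found in 66.7, 43.7 and 46.9% of their cells. Other Csf1r cells did not follow it, with 292, 895 and 528 CPM in populations 1, 4 and 7. Fn1 had 104, 112 and 279 CPM and S100a4 47.0, 56.9 and 159 CPM in C1q-high cells of populations 1, 4 and 7, and both stood highest in population 7 among other Csf1r cells as well (413, 315 and 869 and 149, 155 and 339 CPM). Mrc1 had 24.4, 28.2 and 60.2 CPM and Folr2, a folate receptor of tissue macrophages, 2.27, 3.25 and 10.96 CPM. Bnip3, a hypoxia target, had 104, 102 and 218 CPM, and the median log2 ratio of the 12 genes of glycolysis and hypoxia was 0.70 for population 7 over 1 and 0.67 over 4, against 0.01 and 0.00 for all genes. Of these Bnip3 alone was called. Ldha, lactate dehydrogenase, had 926, 1008 and 1608 CPM in C1q-high cells and 893, 986 and 1895 CPM in T cells of populations 1, 4 and 7, so both classes were highest in population 7. Bhlhe41 had 1.89, 2.29 and 8.93 CPM in populations 1, 4 and 7. Ecscr, Mgl2, Fam20c and Pxdc1 were also among the most raised, with 11.4, 5.01, 7.93 and 3.36 CPM in population 7 and at most 1.76 CPM in the other two.

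Lower list genes of population 7 were Ccl5, Cd300a, Cd38, Nos2, Oasl1 and Plin2. Ccl5 had 336 CPM (328 to 345), against 1789.8 CPM (1754 to 1826) in population 1 and 903 CPM (885 to 920.2) in population 4. T cells, with 6367, 6617 and 2692 CPM of Ccl5 in populations 1, 4 and 7, were lowest in population 7 too. Nos2 had 52.1, 61.5 and 22.1 CPM, Plin2, the coat protein of lipid droplets, 420.0, 449 and 168 CPM, and Cd300a, an inhibitory receptor for dying cells, 144, 130.3 and 51.4 CPM in populations 1, 4 and 7. Oasl1 had 183, 176 and 81.2 CPM and Cd38 24.998, 15.04 and 5.90 CPM. The type I interferon list had a median log2 ratio of -0.64 for population 7 over 1 and -0.54 over 4, with Oasl1 its one called gene of 10. Isg15 had 709.8, 759.6 and 534 CPM in C1q-high cells and 754, 386 and 203 CPM in T cells of populations 1, 4 and 7, lowest in population 7 in both. Angptl4, Arg2, Slpi, Enpp5, Ksr2, Enho, Frmpd4 and Areg were the 8 furthest below, all at under 2 CPM in population 7.

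In population 4 the list genes Cd36, Pdcd1lg2 and Gas6 stood higher. Cd36, a fatty acid and scavenger receptor, had 88.6 CPM (83.3 to 94.3) in C1q-high cells of population 4, 24.6 CPM (20.6 to 29.2) in population 1 and 41.8 CPM (38.9 to 44.9) in population 7, and was found in 38.7, 17.2 and 24.8% of cells. Pdcd1lg2, which encodes PD-L2, had 27.6 CPM (24.6 to 30.8) in population 4, 11.2 CPM (8.51 to 14.4) in population 1 and 6.45 CPM (5.33 to 7.73) in population 7. Other Csf1r cells had 32.0, 26.1 and 18.2 CPM and T cells 62.9, 67.4 and 53.7 CPM. In all 3 populations members held less of it than T cells. Gas6, a bridge between dying cells and receptors such as MERTK, had 2.27, 6.42 and 3.20 CPM in populations 1, 4 and 7. Sdc2 (syndecan 2), Sdcbp2, Dpys, Pdgfrl, Cgnl1, Fam167b, Slc4a11 and Oprm1 had the largest ratios, at 3.52 to 17.1 CPM in population 4. The list gene Clec10a, a lectin, was lower in population 4, at 2.46, 0.967 and 4.24 CPM in populations 1, 4 and 7. Hspa1b, a heat shock gene, was lower there too, at 27.6, 4.57 and 21.7 CPM in populations 1, 4 and 7, and T cells, with 29.4, 0.887 and 10.4 CPM, were lowest there too. Kazn, Sox5, Hspb1, Ptprm, Dgkg, Abcg3 and Ndst1 were the other 7 furthest below, at 0.0879 to 5.19 CPM in population 4.

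The gene that set population 1 apart most did so in other cells as well. Dynlt1b, a dynein light chain, had 168, 0.352 and 0.551 CPM in C1q-high cells of populations 1, 4 and 7, 100.4, 0 and 0.960 CPM in other Csf1r cells and 61.2, 1.48 and 1.49 CPM in T cells. Over all cells it had 59.3 and 46.4 CPM in populations 2 and 3 and under 2 CPM in populations 5, 6, 8 and 9. Dynlt1a, Dynlt1c and Dynlt1f are near-identical copies of Dynlt1b. In C1q-high cells of populations 1, 4 and 7 Dynlt1a had 53.6, 48.2 and 49.3 CPM. Dynlt1c had 17.99, 14.2 and 12.01 CPM there and Dynlt1f 9.28, 8.18 and 8.26 CPM. None of these copies was thus higher in C1q-high cells of populations 4 and 7, where Dynlt1b was near 0. In other Csf1r cells Dynlt1a had 19.9, 27.2 and 23.7 CPM. How reads were divided between the copies was not tested and is uncertain. Among other genes higher in population 1, Thbs1, thrombospondin 1, had 156, 45.5 and 36.4 CPM in C1q-high cells, Clec4b1, a lectin receptor, 56.8, 15.7 and 14.7 CPM and Negr1, an adhesion protein, 57.2, 19.6 and 20.2 CPM. Kazn, Amica1, Mttp and Xcl1 completed the 8 furthest above, at 3.598 to 11.4 CPM in population 1. The list gene Il10, an anti-inflammatory cytokine, had 13.4, 5.54 and 4.79 CPM in C1q-high cells, under the 16.8, 19.5 and 22.9 CPM of T cells. Lower in population 1 were Spp1, osteopontin, at 35.04, 130.0 and 202 CPM, and Cd9, a tetraspanin, at 61.5, 148 and 153 CPM. Spp1 was found in 13.8, 34.1 and 42.9% of C1q-high cells, and T cells, which had 130.3, 123 and 159 CPM, did not show that order. The list genes Chil3 and Il1a were lower as well, from 6 and 17 UMIs in population 1. The others among the 8 furthest below were Ecscr, the complement gene C2, Mfge8, a bridge to dying cells, Cercam, Kif20a and Lyz1, all at under 2 CPM in population 1.

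**Figure D5:**
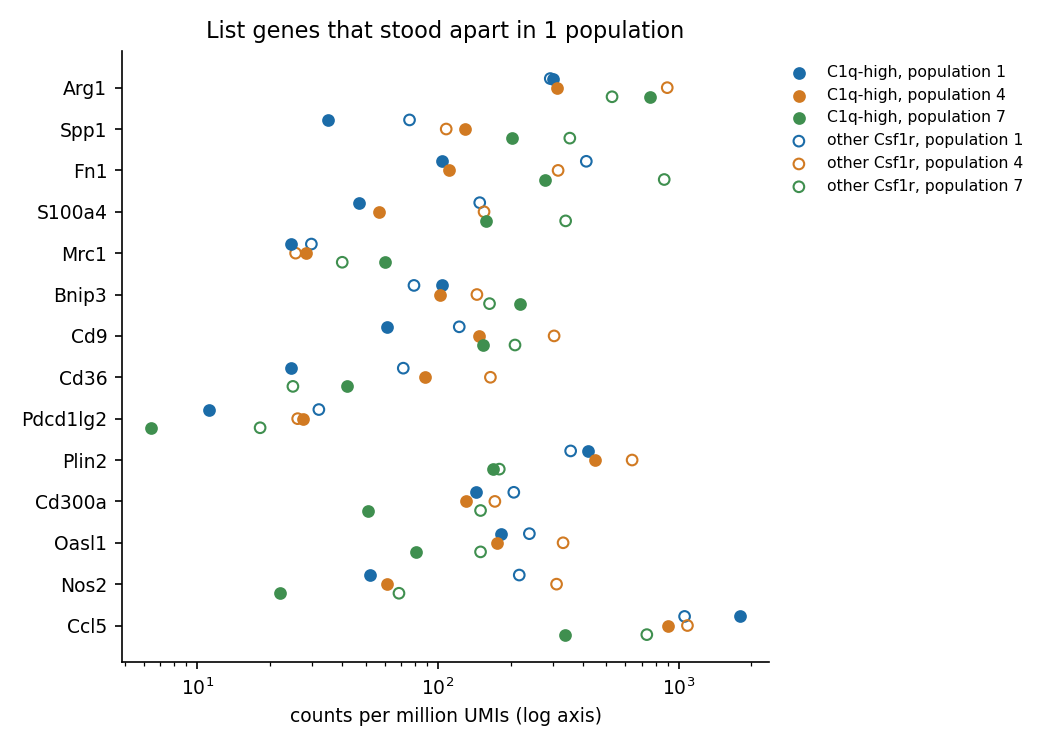
CPM (log axis) of list genes that stood apart in 1 population, in C1q-high cells (filled) and other Csf1r cells (open) of populations 1, 4 and 7. Arg1, Fn1, S100a4, Mrc1 and Bnip3 lie highest in C1q-high cells of population 7 and Ccl5, Nos2, Plin2, Cd300a and Oasl1 lowest there, while other Csf1r cells keep another order in Arg1 and Cd36.

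Of the 89 genes higher in C1q-high cells of population 7, 29 were also measured in other Csf1r cells and 8 of these were apart there (27.6% of the 29, and 32% of 25 genes apart in other Csf1r cells), while 22 of the 29 lay in the same direction. Of the 80 lower genes 43 were measured there and 12 apart (27.9%, and 12.6% of 95), while 33 of the 43 lay in the same direction. The same shares over all genes measured in both classes were not computed. These counts therefore cannot show whether the 2 classes differ between populations in the same genes. Some calls rested on single cells. Retnla, a marker of alternative activation, had 300 UMIs in population 7, of which 297 came from 1 cell, and Cxcl13, a B cell chemokine, had 116, of which 112 came from 1 cell. Il12b had 170 UMIs there, 84 of them from 1 cell. Of 114 Lyz1 UMIs in population 7 1 cell held 89, of 49 Hspb1 UMIs 39, and of 65 Areg UMIs in population 4 it was 59. In all, 2 of 64, 1 of 27 and 3 of 89 higher genes of populations 1, 4 and 7 had over 50% of their UMIs from 1 cell.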

How the data were processed

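RNA was counted in single CD45+ immune cells: 9 sorted samples were hashtagged, pooled and run with the 10x 5′ kit, per the labels' protocols. The deposited table holds UMI counts, whole numbers per gene and cell with no normalization, which the authors made from 4 gene expression libraries and 1 hashtag library. The submitters' processing notes name Cell Ranger 8.0.1, and the design text names mm10-1.2.0 as the reference. The labels call the hashtags TotalSeq-C and the table TotalSeq-B. Neither ties a tag to a sample, so the hashtag populations are no replicates of a group and no test was run.

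Of 21624 barcodes, 93 with under 200 genes or over 20% mitochondrial UMIs were removed and none was under 500 UMIs, which left 21531 cells. A cell took the hashtag whose count was at least 3 times the next (258 cells took none). Counts were summed by class and population and scaled to CPM. A gene was measured against other Csf1r cells where both classes together held at least 50 UMIs in each population, and between populations at 50 UMIs over the members. Intervals are 95%: exact Poisson for levels, conditional binomial for ratios, Clopper-Pearson for shares. A count of 0 was set to 3 counts in a ratio, which then reads "at least". PCR copies are removed by UMI, but cells of 1 sample are not independent, so intervals cover counting error only. T cells (at least 3 UMIs of Cd3 genes, no Csf1r) gave the background from free RNA. Scrublet, at an expected 8% of doublets, called 184 of 21531 cells (0.855%), and these were kept. The ratio step was tested on simulated counts.

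Members, the 16 gene lists (182 genes, 181 of them in the table) and the alternatives were chosen with earlier results of these data known. Named genes are the list genes, the 15 highest and 15 lowest median log2 ratios among called genes, the 8 genes furthest above and below both others in each population, and the 15 genes of largest variance over mean. Genes of the rule, mitochondrial genes and unnamed gene models were left out of these. Some named genes are not reported here. Alternatives changed the C1q, Csf1r, hashtag and UMI limits, the scaling, the depth and the populations included. Gene positions are from GENCODE vM21 (GRCm38). Python 3.11.15 was used with numpy 2.4.6, scipy 1.17.1, pandas 2.3.3, scanpy 1.11.5 and matplotlib 3.10.9.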

Additional observations from a re-analysis of the deposited data

Results flagged for a closer look

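Outside the 3 populations described, 19 of 14446 cells of populations 2, 3, 5, 6, 8 and 9 met the same C1q limits (0.132%, 95% interval 0.0792 to 0.205%). They were singled out because they lie in samples that no comparison used. Csf1r was found in 16 and Adgre1 in 10 of them, their median depth was 3117 UMIs and their C1q counts ran from 20 to 127 (median 38). Their levels were 3068 CPM of Apoe, 25288 CPM of Cd74 and 991 CPM of Cxcl9, while Cd5l, Marco and Slc40a1, genes of resident macrophages of lymphoid organs, had 0 UMIs among 84744. Vcam1, found on such macrophages too, had 5 UMIs in 3 of the cells. Whether these cells belong to those samples or carry the wrong hashtag was not tested.

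Of the 258 cells without a hashtag 16 met the limits (6.20%, 3.59 to 9.88%), singled out because they too entered no comparison. Csf1r was found in 16 and Adgre1 in 12 of them, their median depth was 4679.5 UMIs and their C1q counts ran from 20 to 136 (median 51).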

How the results depend on the processing

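Of 1385 values of single genes set against an alternative, 1252 kept their direction and their side of the limit. Another 129 lost the call without changing sign, and 4 changed sign. The 4 were Gzma at 1.58 (log2 against other Csf1r cells with at least 3 Csf1r UMIs), Retnla at -0.67 and Cxcl13 at -0.26 (population 7 against the nearer population without the cell with the most UMIs) and Areg at 0.99 (cells of 10000 to 20000 UMIs). Part of the 1252 was fixed in advance: 109 with called doublets removed, since neither class held any. So were 61 without each population in turn, since a gene called in all 3 populations passes in any pair of them. Of the 129, 37 came from the limit of 200 UMIs, where the value itself did not change. A gene that came to lie between the other populations would also count among the 129.

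Shares of C1q-high cells in populations 1, 4 and 7 were 22.5, 34.0 and 46.9% with at least 10 C1q UMIs, 18.04, 28.9 and 41.7% with at least 40, and 23.2, 34.3 and 46.4% in thinned cells. Against other Csf1r cells 400 genes were lower with 10 C1q UMIs, 455 with 3 Csf1r UMIs and 394 when the others held at most 5 C1q UMIs. With 200 UMIs per gene 95 were higher and 496 lower, thinned to 3000 UMIs 99 were higher, and in cells of 5000 to 10000 UMIs 36 were higher and 54 lower. Without 1 population, 219 to 323 genes were higher (323 without population 1) and 840 to 1217 lower (1217 without population 7). List genes then came to 19 to 22 higher and 24 to 29 lower, and at a fold of 1.5 to 28 higher and 36 lower. Abca1, Mitf, Vegfa and Fcgr4 were no longer called with 3 Csf1r UMIs, nor when the others held at most 5 C1q UMIs.

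Between populations, 200 UMIs per gene left 17 genes higher and 23 lower in population 1, 7 and 9 in population 4, and 47 and 34 in population 7. In cells of 10000 to 20000 UMIs 42 were higher in population 1, and 14 were higher and 21 lower in population 4. Population 1 had 42 higher without the top cell of each gene and 68 lower as a mean over cells. Thinned to 1500 UMIs, 29 genes had a variance over mean of at least 3. The cause of these shifts was not tested, other than that stricter limits leave fewer genes. No cell of either class was called a doublet, so removing called doublets left that comparison as it was. Median depth was 12169 to 16738 UMIs per C1q-high cell and 4017.5 to 6150 per other Csf1r cell. No paired analysis was possible because the labels give the populations no group or replicate number and no test was run, while the 2 classes were compared within each population.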

Other observations

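A pair of genes known from cross-presenting dendritic cells was followed further in C1q-high cells, a choice made after their values were seen. Xcr1 was found in 11.8, 7.57 and 5.50% of C1q-high cells of populations 1, 4 and 7, against 0.521, 0.315 and 0.218% of other Csf1r cells. Clec9a was found in 27.5, 32.6 and 11.4% of C1q-high cells, against 4.17, 6.31 and 3.71% of other Csf1r cells. Both were found in the same 30, 36 and 12 C1q-high cells. Among C1q-high cells with Xcr1, 62.5, 65.5 and 20.0% also held Clec9a, against 22.8, 29.9 and 10.9% of those without. T cells had 0.566, 0.296 and 0.497 CPM of Clec9a. Of the other dendritic cell markers Itgae had 1.52, 1.06 and 0.661 CPM in C1q-high cells, Flt3, Zbtb46 and Cd209a had at most 0.661 CPM, and Cd209a had 32.0, 16.9 and 48.3 CPM in other Csf1r cells. Deeper cells hold more UMIs of any gene, and the part of depth in these shares was not tested.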
